A study of Homo sapiens with 8 samples.

Results

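The transcripts described here encode the transporters, enzymes and kinases of glycolysis, the pentose phosphate pathway and the entry of pyruvate into the mitochondrion. They are 39 genes of the 25369 in the deposited expression table, taken by symbol from a fixed list, and all 39 were present. RNA was sequenced from EPC2-hTERT, an esophageal epithelial cell line immortalised with telomerase and grown as a stratifying culture. HIF1A-KD cells carried a short hairpin RNA against HIF1A, and shCtrl cells a control hairpin. Both were made by lentiviral transduction, and 4 libraries of each were sequenced, numbered 1 to 4. Both groups were grown on membranes with 0.4 µm pores for 2 days, kept in 1.8 mM calcium chloride for 5 days and exposed to air for 4 days. The labels also name a vehicle (DMSO) and the hydroxylase inhibitor dimethyloxalylglycine, and do not say which libraries, if any, received either. They do not say whether the 4 libraries came from separate cultures, so p-values measure only the spread between these libraries, which may be technical. The labels do not say how many hairpins or clones stand behind each line.

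Glycolysis splits glucose into pyruvate in the cytosol, and lactate dehydrogenase turns pyruvate into lactate when it is not taken into mitochondria. The pentose phosphate pathway draws glucose 6-phosphate off to make NADPH and ribose. Pyruvate dehydrogenase opens the mitochondrial route and is switched off by its kinases. HIF-1, the oxygen-regulated factor whose alpha subunit HIF1A encodes, is known to bind glycolytic genes and to raise their transcription in low oxygen. Squamous epithelium is stratified, and its outer layers lie far from the blood supply.

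The known core of the HIF-binding element is ACGTG or GCGTG, so the promoters of 5 members are shown with these letters marked. The 5 were picked by hand with earlier results known, and all 5 hold a match. PGM1, ALDOA and GAPDH, also among the 8 members with the smallest unpaired p, are not shown. The stretches are the 250 bases before the RefSeq start on GRCh38.p14, plus strand, 5′ to 3′: LDHA at chr11:18394313-18394562, ENO2 at chr12:6914330-6914579, PGD at chr1:10398814-10399063, RPIA at chr2:88691423-88691672 and PDK2 at chr17:50095101-50095350. LDHA has 2 windows and PDK2 has 3, and the 1 with the most matches is shown. Capitals mark these letters on either strand, so a match on the opposite strand reads CACGT or CACGC here, and the palindrome CACGTG matches on both.
LDHA: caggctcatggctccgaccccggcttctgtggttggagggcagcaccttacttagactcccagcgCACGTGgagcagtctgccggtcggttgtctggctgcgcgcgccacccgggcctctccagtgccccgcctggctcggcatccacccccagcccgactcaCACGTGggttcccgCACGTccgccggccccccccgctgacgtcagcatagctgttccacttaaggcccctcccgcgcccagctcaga
ENO2: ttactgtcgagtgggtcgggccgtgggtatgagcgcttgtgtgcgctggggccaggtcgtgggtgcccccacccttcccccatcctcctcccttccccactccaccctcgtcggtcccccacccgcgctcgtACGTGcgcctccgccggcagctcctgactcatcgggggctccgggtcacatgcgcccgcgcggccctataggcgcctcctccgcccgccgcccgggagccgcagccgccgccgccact
PGD: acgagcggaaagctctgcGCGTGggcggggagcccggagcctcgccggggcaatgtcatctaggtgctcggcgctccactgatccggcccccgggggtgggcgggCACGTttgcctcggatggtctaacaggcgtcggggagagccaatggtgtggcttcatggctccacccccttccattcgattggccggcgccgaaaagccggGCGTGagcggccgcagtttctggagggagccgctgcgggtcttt
RPIA: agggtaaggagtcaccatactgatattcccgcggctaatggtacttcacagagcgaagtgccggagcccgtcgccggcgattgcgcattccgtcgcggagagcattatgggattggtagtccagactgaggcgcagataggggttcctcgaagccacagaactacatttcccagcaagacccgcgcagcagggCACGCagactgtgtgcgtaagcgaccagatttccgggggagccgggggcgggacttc
PDK2: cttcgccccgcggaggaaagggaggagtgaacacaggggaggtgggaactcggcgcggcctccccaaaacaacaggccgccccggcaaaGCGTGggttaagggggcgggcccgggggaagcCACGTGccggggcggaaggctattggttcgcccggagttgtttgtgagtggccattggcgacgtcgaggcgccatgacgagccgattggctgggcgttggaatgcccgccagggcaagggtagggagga
Counted in bases from the start, the capitals begin at −185, −87 and −73 in LDHA, at −118 in ENO2, at −232, −145 and −44 in PGD, at −57 in RPIA, and at −161 and −129 in PDK2. The palindromic form is in the LDHA and PDK2 stretches, and the mean level in HIF1A-KD was lower for LDHA and higher for PDK2.

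The letters are common. They occurred in 48.4% of all 35116 promoter windows of 300 bases (250 before to 50 after the start) and in 40 of 67 windows of the members (59.7%). SLC2A3, SLC16A1 and PFKFB2 were not matched to a window. Of the 36 members with a window, 30 held the letters in at least 1 (83.3%, against 52.4% of all gene symbols), but genes with more windows have more chances to match. Among genes with 1 window the shares were 17 of 23 members (73.9%) and 47.3% of all symbols. Both forms contain the letters CG, and members were not matched with other symbols for base composition or expression. Whether the letters were more common than in matched genes was not tested. By step, the letters occurred for 2 of 2 transporters, 11 of 11 genes from hexokinase to aldolase, 8 of 9 from triose phosphate to lactate, 2 of 6 pentose phosphate genes and 7 of 8 genes of pyruvate dehydrogenase and its kinases. PGAM1, PGLS, RPE, TALDO1, TKT and PDK4 had no match in this window. A match is a description of letters and not a binding site.

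The knockdown was partial and varied between libraries. Levels are in RPKM, reads divided by the length listed for the gene and by the total of the library. The length listed for HIF1A, 4395 bases, is shorter than its span on the chromosome. HIF1A (chromosome 14, 62162119 to 62214977, plus strand, hg19) stood at 27.6, 19.0, 54.8 and 45.04 RPKM in HIF1A-KD 1 to 4. In shCtrl 1 to 4 it stood at 95.2, 51.4, 89.8 and 122 RPKM. Every HIF1A-KD library was below the shCtrl library of its number, but HIF1A-KD 3 was above shCtrl 2. The HIF1A-KD mean was 40.8% of the shCtrl mean, with a log2 change of −1.34 (SE 0.37). In the unpaired limma fit across 11899 genes this did not pass (adjusted p = 0.319, 0.0521 to 0.836 over its alternatives). It passed with the library number as a block (adjusted p = 0.0253), a fit called paired here, and that call was lost without library 1, 2 or 4 of either group (0.0095 to 0.187 over the leave-outs and the paired fit). A two-sided exact permutation test of 4 against 4 gave p = 0.0571, where 0.0286 is the smallest possible. The values imply 38068729 to 65326907 reads in HIF1A-KD and 43205845 to 52401547 in shCtrl libraries. All 10 squamous epithelial markers were tested, with summed levels of 25320 to 30183 RPKM in HIF1A-KD and 23216 to 29307 RPKM in shCtrl. Markers of other cells were low: the 8 fibroblast genes summed to 14.1 to 19.2 RPKM in HIF1A-KD and 21.2 to 27.7 RPKM in shCtrl, nearly all of it COL1A1, with THY1 at 0. Leukocyte genes (7, with PTPRC, CD3E and CPA3 at 0) summed to 2.03 to 6.17 RPKM in HIF1A-KD and 1.53 to 10.2 RPKM in shCtrl. Endothelial genes (4, led by VWF) summed to 1.39 to 12.8 RPKM in HIF1A-KD and 0.748 to 15.4 RPKM in shCtrl, and melanocyte genes (4, with MLANA and TYR at 0) to 0.260 to 1.95 RPKM in HIF1A-KD and 0.342 to 0.900 RPKM in shCtrl. Of the 10 squamous markers none passed either limma fit, with estimates above 0 for 6 and below 0 for 4 (KRT5, TP63, KRT6A and PKP1). The largest estimates were those of the suprabasal keratins KRT13 and KRT4. KRT13 stood at 367, 1034, 721 and 1081 RPKM in HIF1A-KD 1 to 4 and at 25.7, 157, 676 and 152 RPKM in shCtrl 1 to 4, with overlap (log2 change 2.37). KRT4 stood at 1984, 1608, 1194 and 1298 RPKM in HIF1A-KD 1 to 4 and at 188, 246, 729 and 382 RPKM in shCtrl 1 to 4, without overlap (log2 change 2.15). The part of these markers in the results was not tested.

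Across the pathway, the transcripts listed from hexokinase to lactate were mostly lower on average in HIF1A-KD. The 6 pentose phosphate transcripts were all higher on average, but no member passed either test. Without shCtrl 2, estimates were below 0 for 11 of the 21 genes from hexokinase to lactate. The paired fit takes libraries 3 and 4 to be matched by number, which the correlations between libraries leave in doubt. Counts and differences over numbered pairs carry the same doubt. PDK4 was too low to test, which left 38 of 39 members. The number called at an adjusted p under 0.05 was 0 in the unpaired fit, where 0.042% of all genes were called, and 0 in the paired fit, where 1.83% were. Adjusted p-values ran from 0.485 to 1.00 unpaired and from 0.0697 to 0.999 paired. At an unadjusted p under 0.05 there were 4 members (10.5%) in the unpaired limma fit, against 7.8% of all genes, and 13 (34.2%) in the paired fit, against 19.6%. Of these 13, 4 were higher, where 11.9% of all genes were at that level and higher, and 9 were lower, where 7.74% were. RPIA, higher in HIF1A-KD, was the only member whose groups did not overlap, where 5.4% of all genes did not (3.27% higher). In 10 members (26.3%) all 4 numbered pairs differed the same way, against 29.5% of all genes; 5 were higher (18.6% of all genes) and 5 lower (10.9% of all genes). Estimates were below 0 for 22 members (57.9%), against 41.3% of all genes, and the median log2 change was −0.03, against 0.06 over all genes tested. In bulk RNA, fewer cells of a type and less RNA per cell cannot be told apart.

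**Figure D1:**
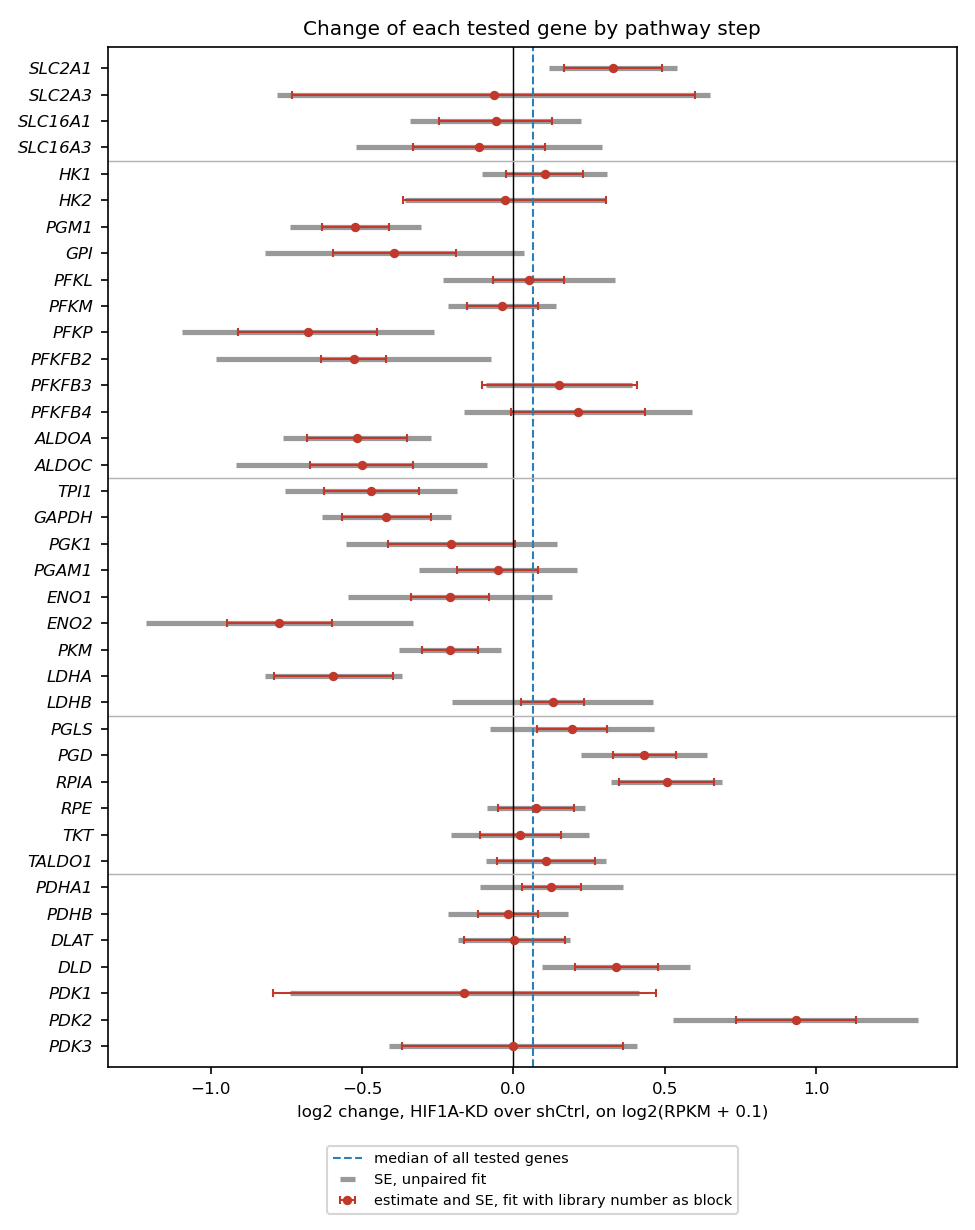
Log2 change (HIF1A-KD over shCtrl) of the 38 tested members on the log2(RPKM + 0.1) scale, ordered by step, with grey bars for the standard error of the unpaired limma fit, red bars for that of the paired fit and a dashed line at the median of all genes. Most points from hexokinase to lactate lie left of 0 and all 6 pentose phosphate points lie right of 0, and none passed at an adjusted p under 0.05.

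Glucose enters and lactate leaves through the transporters, and the most abundant of them, the glucose carrier SLC2A1, was higher on average in HIF1A-KD. SLC2A1 (GLUT1; chromosome 1, 43391046 to 43424847, minus strand, hg19, as for all positions except the promoters) held 325, 338, 218 and 319 RPKM in HIF1A-KD 1 to 4, against 219, 305, 245 and 188 RPKM in shCtrl 1 to 4. It averaged 300.2 ± 55.2 RPKM in HIF1A-KD and 239 ± 49.6 RPKM in shCtrl (SD, n = 4 each, as for every ± value here), a log2 change of 0.33 (SE 0.21, limma adjusted p = 0.815). HIF1A-KD 3 stood apart at the low end of its group, and the groups overlapped.

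SLC2A3 (GLUT3), a high-affinity glucose carrier, was a small part of the pool and varied more between libraries than between groups; its reads may be shared with the near-identical SLC2A14. It held 4.51, 17.6, 4.65 and 24.8 RPKM in HIF1A-KD 1 to 4 and 4.84, 21.5, 20.8 and 5.10 RPKM in shCtrl 1 to 4. Taken by number, pairs 3 and 4 differed in opposite directions, by −2.14 and 2.26 on the log2 scale. Whether libraries 3 and 4 are matched by number is in doubt. As a share of SLC2A1 plus SLC2A3 it made up 3.91 ± 2.70% in HIF1A-KD and 4.80 ± 2.82% in shCtrl. Of the monocarboxylate carriers, the exporter SLC16A3 (MCT4) averaged 55.6 ± 25.0 RPKM in HIF1A-KD and 62.1 ± 35.0 RPKM in shCtrl, and SLC16A1 (MCT1) averaged 27.3 ± 8.67 RPKM in HIF1A-KD and 28.1 ± 7.61 RPKM in shCtrl. The SLC16A3 share of the pair was close in the 2 groups, at 65.9 ± 9.51% in HIF1A-KD and 66.7 ± 9.32% in shCtrl.

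From hexokinase to aldolase, 8 of 12 estimates (66.7%) were below 0, against 41.3% of all genes, with a median log2 change of −0.22 (0.06 over all genes) and a range from −0.68 to 0.21. Without shCtrl 2 the count was 6 of 12, with a median of −0.0005. At an unadjusted p under 0.05 there was 1 member (8.33%) unpaired, against 7.8% of all genes. There were 5 (41.7%) in the paired fit, all lower, against 19.6% of all genes in either direction and 7.74% lower. PGM1 and PFKFB2, listed here but not catalysing a step from glucose to lactate, were among the 5. Hexokinase, which traps glucose as glucose 6-phosphate, was mostly HK1. HK1 averaged 53.8 ± 12.6 RPKM in HIF1A-KD and 49.4 ± 7.02 RPKM in shCtrl, and HK2, the inducible form, 20.01 ± 9.76 RPKM in HIF1A-KD and 19.3 ± 4.94 RPKM in shCtrl. HK2 made up 27.1 ± 10.9% of the 2 in HIF1A-KD and 28.2 ± 7.64% in shCtrl. GPI, which converts glucose 6-phosphate to fructose 6-phosphate, averaged 21.9 ± 10.4 RPKM in HIF1A-KD and 30.2 ± 19.0 RPKM in shCtrl.

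PGM1 links glycogen to glycolysis by moving a phosphate between the first and the sixth carbon of glucose. PGM1 (chromosome 1, 64058947 to 64125916, plus strand) held 10.2, 8.02, 9.09 and 6.46 RPKM in HIF1A-KD 1 to 4 and 16.1, 11.7, 11.6 and 9.54 RPKM in shCtrl 1 to 4. Every HIF1A-KD value was below the shCtrl value of its number, and the groups overlapped only through HIF1A-KD 1 and shCtrl 4. The log2 change was −0.52 (SE 0.22), with a limma adjusted p of 0.592 unpaired and 0.0752 paired (0.0752 to 0.320 over the leave-outs and the paired fit).

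Phosphofructokinase, the committed step, was represented by all 3 subunit genes. PFKP, the platelet type, was the most abundant in the shCtrl libraries, at 31.2 ± 16.6 RPKM in HIF1A-KD and 46.3 ± 16.7 RPKM in shCtrl (log2 change −0.68, SE 0.42, limma adjusted p = 0.8001). Its share of the 3 was 27.4, 56.3, 44.8 and 62.1% in HIF1A-KD 1 to 4 and 51.4, 62.3, 65.6 and 57.9% in shCtrl 1 to 4. The lowest share was in HIF1A-KD 1, pair 4 went the other way from the rest, and the groups overlapped. PFKL, the liver type, averaged 20.4 ± 6.17 RPKM in HIF1A-KD and 19.8 ± 6.88 RPKM in shCtrl, and PFKM, the muscle type, 10.9 ± 1.76 RPKM in HIF1A-KD and 11.2 ± 1.38 RPKM in shCtrl.

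The PFKFB genes make the enzymes that set the level of a strong activator of phosphofructokinase. PFKFB2, chosen for its values in every library after its small paired p was seen, had 17.6, 8.53, 5.87 and 6.19 RPKM in HIF1A-KD 1 to 4 and 26.6, 13.2, 7.99 and 8.47 RPKM in shCtrl 1 to 4. Library 1 was the highest of its group in both, and each HIF1A-KD value was below its shCtrl partner. Its log2 change was −0.53, with an SE of 0.45 unpaired and 0.11 paired, and the limma adjusted p was 0.906 unpaired and 0.0697 paired (0.0697 to 0.319 over the leave-outs and the paired fit). PFKFB3, the main form in proliferating cells, averaged 19.0 ± 4.67 RPKM in HIF1A-KD and 17.1 ± 4.23 RPKM in shCtrl. PFKFB4 averaged 3.87 ± 1.09 RPKM in HIF1A-KD and 3.64 ± 2.15 RPKM in shCtrl. PFKFB2 made up 28.5 ± 10.5% of the 3 in HIF1A-KD and 38.7 ± 14.0% in shCtrl, with PFKFB3 at 59.2 ± 10.0% in HIF1A-KD and 50.6 ± 12.8% in shCtrl.

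ALDOA, the main aldolase, cleaves the hexose into triose phosphates. ALDOA (chromosome 16, 30064411 to 30081741, plus strand) held 169, 255, 140 and 213 RPKM in HIF1A-KD 1 to 4, against 232, 367, 293 and 215 RPKM in shCtrl 1 to 4. It was lower in 4 of 4 pairs, but pair 4 differed by only −0.01 on the log2 scale. The log2 change was −0.52 (SE 0.25, limma adjusted p = 0.686). ALDOC averaged 10.9 ± 4.89 RPKM in HIF1A-KD and 16.3 ± 10.4 RPKM in shCtrl, where shCtrl 2 held 31.9 RPKM and the other 3 held 10.2 to 11.96 RPKM. ALDOC made up 5.20 ± 1.26% of the aldolase pool in HIF1A-KD and 5.28 ± 1.92% in shCtrl.

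**Figure D2:**
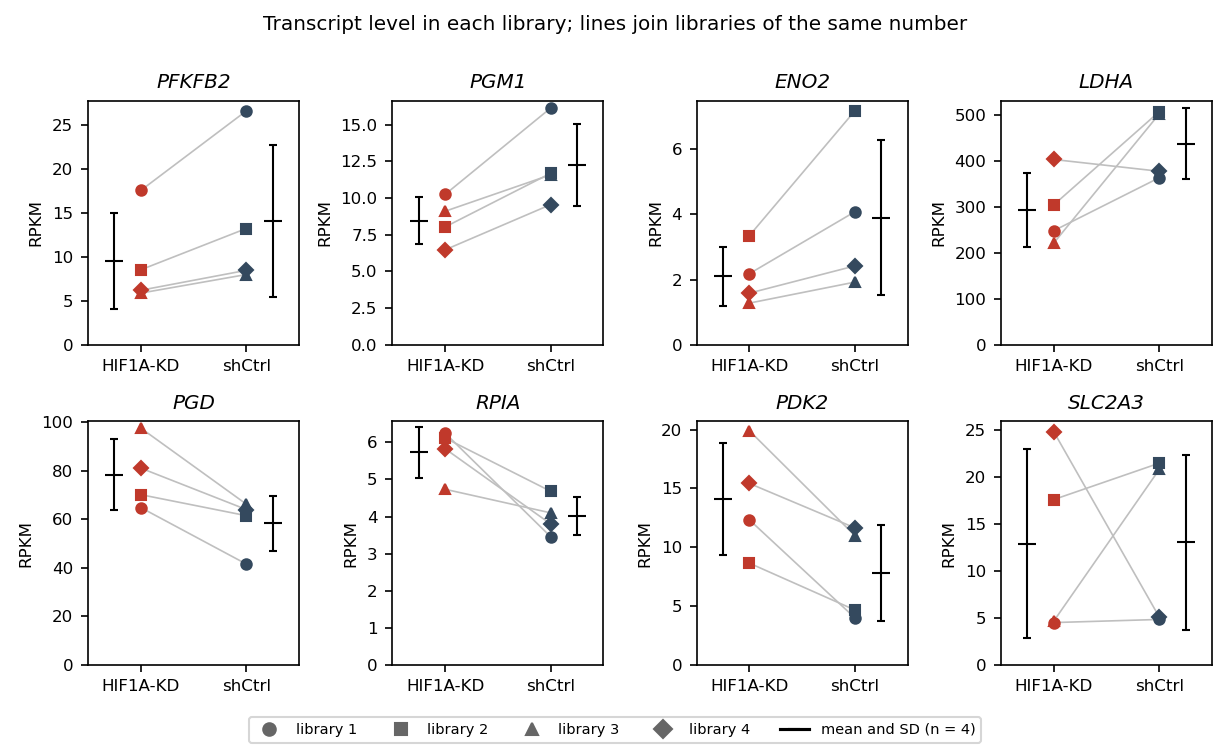
RPKM in each library for 8 members (PFKFB2, PGM1, ENO2, LDHA, PGD, RPIA, PDK2 and SLC2A3), HIF1A-KD left of shCtrl, with a symbol per library number, lines joining libraries of the same number, and bars for mean and SD (n = 4). RPIA is the panel whose groups do not overlap, at 4.74 to 6.25 RPKM in HIF1A-KD and 3.46 to 4.68 RPKM in shCtrl.

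From triose phosphate to lactate, 8 of 9 estimates (88.9%) were below 0, against 41.3% of all genes, with a median log2 change of −0.21 (0.06 over all genes) and a range from −0.77 to 0.13. Without shCtrl 2 the count was 5 of 9, with a median of −0.23. Several of these genes have processed pseudogenes (GAPDH, LDHA, PGK1, TPI1, ENO1, PKM, PGAM1, and ALDOA above) to which reads can be lost. GAPDH, which oxidises the triose, was the most abundant member (chromosome 12, 6643571 to 6647541, plus strand), at 534, 749, 487 and 752 RPKM in HIF1A-KD 1 to 4 and 706, 1055, 870 and 724 RPKM in shCtrl 1 to 4. The shCtrl 2 value was the highest and HIF1A-KD 3 the lowest. GAPDH is often used as a constant standard; it averaged 630.4 ± 139.8 RPKM in HIF1A-KD and 839 ± 162 RPKM in shCtrl (log2 change −0.42, SE 0.21, limma adjusted p = 0.728). TPI1, which interconverts the triose phosphates (chromosome 12, 6976584 to 6980110, plus strand), held 142, 220, 112 and 154 RPKM in HIF1A-KD 1 to 4 and 212, 322, 199.97 and 144 RPKM in shCtrl 1 to 4. Again shCtrl 2 was the highest library and HIF1A-KD 3 the lowest (log2 change −0.47, SE 0.28, limma adjusted p = 0.798).

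PGK1, which makes the first ATP of the lower pathway, averaged 106 ± 36.3 RPKM in HIF1A-KD and 126 ± 60.4 RPKM in shCtrl. PGAM1, the mutase, averaged 159 ± 37.9 RPKM in HIF1A-KD and 167 ± 53.8 RPKM in shCtrl, and the enolase ENO1 150.1 ± 45.04 RPKM in HIF1A-KD and 181 ± 80.1 RPKM in shCtrl. The estimates of all 3 were below 0 and smaller than their standard errors in the unpaired fit. The minor enolase ENO2, best known from neurons (chromosome 12, 7023614 to 7032859, plus strand), had the lowest estimate of all members, with 2.18, 3.35, 1.28 and 1.58 RPKM in HIF1A-KD 1 to 4 and 4.08, 7.18, 1.92 and 2.42 RPKM in shCtrl 1 to 4. It was lower in 4 of 4 pairs while the groups overlapped, since libraries 1 and 2 were higher than 3 and 4 in both. The log2 change was −0.77 (SE 0.44, limma adjusted p = 0.774 unpaired and 0.0862 paired, 0.0862 to 0.368 over the leave-outs and the paired fit). ENO2 made up 1.34 ± 0.175% of the enolase pool in HIF1A-KD and 2.03 ± 0.438% in shCtrl, lower in 4 of 4 pairs.

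Pyruvate kinase, which makes pyruvate, was counted over PKM as a whole, so its M1 and M2 splice forms were not told apart. PKM (chromosome 15, 72491370 to 72523727, minus strand) held 568, 509, 660.2 and 715 RPKM in HIF1A-KD 1 to 4 and 618, 679, 782 and 746 RPKM in shCtrl 1 to 4. It was lower in 4 of 4 pairs by a small amount (log2 change −0.21, SE 0.17, limma adjusted p = 0.883).

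Lactate dehydrogenase A favours the making of lactate and the B subunit the reverse. LDHA (chromosome 11, 18415936 to 18429765, plus strand) held 248, 305, 221 and 404 RPKM in HIF1A-KD 1 to 4, against 364, 508, 503 and 378 RPKM in shCtrl 1 to 4. HIF1A-KD 4 lay above shCtrl 4 and shCtrl 1, and the other 3 HIF1A-KD libraries lay below all 4 shCtrl libraries. The mean was 294.5 ± 80.6 RPKM in HIF1A-KD, 67.2% of the 438 ± 77.9 RPKM in shCtrl, with a log2 change of −0.59 (SE 0.23, limma adjusted p = 0.527). LDHB averaged 89.5 ± 26.7 RPKM in HIF1A-KD and 84.5 ± 34.6 RPKM in shCtrl. The LDHA share of the 2 was 67.9, 74.0, 76.5 and 86.0% in HIF1A-KD 1 to 4 and 76.5, 81.3, 89.8 and 87.8% in shCtrl 1 to 4, lower in 4 of 4 pairs with overlapping groups.

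**Figure D3:**
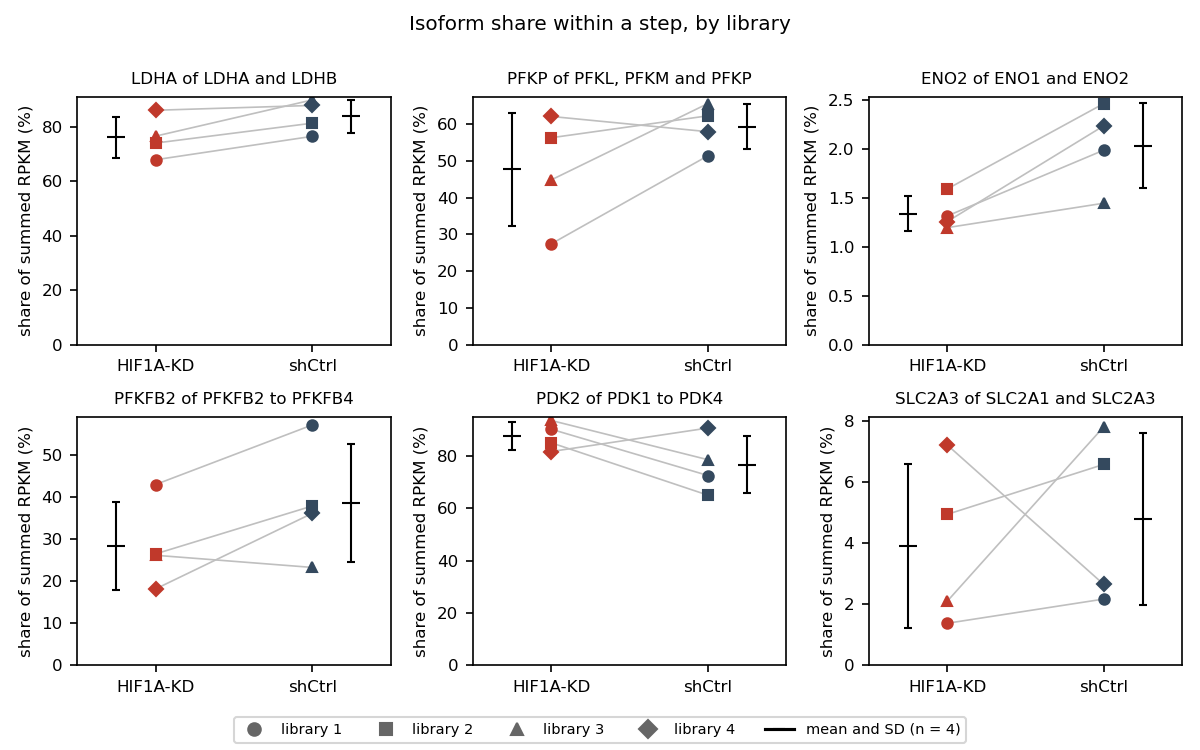
Share of each isoform in the summed RPKM of its step, in percent, HIF1A-KD left of shCtrl, with a symbol per library number, lines joining the same number, and bars for mean and SD (n = 4). The LDHA and ENO2 shares were lower in HIF1A-KD in 4 of 4 pairs, and in every share drawn the groups overlapped.

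The 21 genes from hexokinase to lactate were put together after their values were seen. The 21 include PGM1, PFKFB2, PFKFB3 and PFKFB4, which do not catalyse a step from glucose to lactate. PGM1 and PFKFB2 had estimates below 0, and PFKFB3 and PFKFB4 above 0. Over the 21 genes, 16 estimates (76.2%) were below 0 against 41.3% of all genes tested, with a median of −0.21. Without shCtrl 2 the count was 11 of 21 and the median −0.02. The median was −0.26 without shCtrl 1, −0.33 without shCtrl 3 and −0.43 without shCtrl 4. It was −0.27 without HIF1A-KD 1, −0.40 without HIF1A-KD 2, −0.19 without HIF1A-KD 3 (14 of 21 below 0) and −0.32 without HIF1A-KD 4. Among libraries 1 and 2 the median of the 21 was −0.38, with 18 below 0, and among libraries 3 and 4 it was −0.15, with 14 below 0. The LDHA change was −0.64 among libraries 1 and 2 and −0.54 among libraries 3 and 4, but the pairs behind the second value differed, at −1.18 for number 3 and 0.09 for number 4. For ALDOA the values were −0.49 and −0.54, with −1.07 for number 3 and −0.01 for number 4. The matching of numbers 3 and 4 is in doubt, so these pair values may not compare partners.

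The pentose phosphate transcripts were higher on average in HIF1A-KD for all 6 genes listed, with log2 changes from 0.02 to 0.51 and a median of 0.15, where 58.7% of all genes had an estimate above 0. Without shCtrl 3, shCtrl 4 or HIF1A-KD 1 the count was 5 of 6, and under median-of-ratios scaling, which moves the median of all genes to about 0, it was also 5 of 6. Within libraries 1 and 2 it was 4 of 6, and within libraries 3 and 4 it was 5 of 6. PGD, the 6-phosphogluconate dehydrogenase of the oxidative branch that makes NADPH (chromosome 1, 10459085 to 10480201, plus strand), held 64.9, 70.2, 97.7 and 81.2 RPKM in HIF1A-KD 1 to 4 and 41.6, 61.5, 66.3 and 64.1 RPKM in shCtrl 1 to 4. It was higher in 4 of 4 pairs, and 1 HIF1A-KD library lay within the shCtrl range. The log2 change was 0.43 (SE 0.21, limma adjusted p = 0.696 unpaired and 0.0989 paired, 0.0989 to 0.332 over the leave-outs and the paired fit).

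RPIA, which makes ribose 5-phosphate for nucleotides (chromosome 2, 88991176 to 89050452, plus strand), held 6.25, 6.12, 4.74 and 5.83 RPKM in HIF1A-KD 1 to 4 and 3.46, 4.68, 4.10 and 3.80 RPKM in shCtrl 1 to 4. The groups parted by the narrow gap between HIF1A-KD 3 and shCtrl 2. Its mean was 143% of the shCtrl mean, with a log2 change of 0.51 (SE 0.18), and it had the smallest unpaired adjusted p of all members (0.485, limma; 0.182 to 0.927 over its alternatives). The lactonase PGLS averaged 83.7 ± 28.2 RPKM in HIF1A-KD and 71.3 ± 15.7 RPKM in shCtrl, and the epimerase RPE 11.7 ± 1.47 RPKM in HIF1A-KD and 11.1 ± 0.982 RPKM in shCtrl. Of the enzymes that return sugars to glycolysis, TKT (transketolase) averaged 144 ± 36.3 RPKM in HIF1A-KD and 140.4 ± 29.1 RPKM in shCtrl, and TALDO1 (transaldolase) 196 ± 39.5 RPKM in HIF1A-KD and 181 ± 28.3 RPKM in shCtrl.

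At pyruvate entry the widest difference between groups was in PDK2, a kinase that switches pyruvate dehydrogenase off. PDK2 (chromosome 17, 48172101 to 48188733, plus strand) held 12.3, 8.65, 19.9 and 15.4 RPKM in HIF1A-KD 1 to 4 and 3.99, 4.67, 11.0 and 11.6 RPKM in shCtrl 1 to 4. Each HIF1A-KD value was above its shCtrl partner, libraries 3 and 4 were higher than 1 and 2 in both groups, and the groups overlapped through HIF1A-KD 2. The HIF1A-KD mean was 180% of the shCtrl mean (log2 change 0.93, SE 0.40), with a limma adjusted p of 0.627 unpaired and 0.0746 paired (0.0526 to 0.297 over the leave-outs and the paired fit). Within libraries 1 and 2 the change was 1.24, and within 3 and 4 it was 0.63.

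PDK1, the kinase best known as a HIF-1 target, was far lower, with 0.643, 1.12, 0.673 and 3.03 RPKM in HIF1A-KD 1 to 4 and 0.897, 1.91, 2.503 and 0.561 RPKM in shCtrl 1 to 4. The highest HIF1A-KD value and the lowest shCtrl value were those of library 4, the reverse of libraries 1 to 3. Whether libraries 3 and 4 are matched by number is in doubt. PDK3 averaged 0.467 ± 0.190 RPKM in HIF1A-KD and 0.452 ± 0.123 RPKM in shCtrl. PDK4, a kinase raised in fasting, had 3, 1, 16 and 23 reads in HIF1A-KD 1 to 4 and 12, 5, 30 and 44 reads in shCtrl 1 to 4, too few to test. PDK2 held 90.3, 85.1, 93.7 and 81.8% of the summed kinase RPKM in HIF1A-KD 1 to 4 and 72.6, 65.1, 78.7 and 90.8% in shCtrl 1 to 4; it was the main kinase in all 8 libraries.

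Of the 4 genes of the dehydrogenase complex itself, DLD had the widest difference in means. PDHA1 and PDHB, the subunits of the E1 enzyme, averaged 18.1 ± 4.00 and 18.8 ± 3.31 RPKM in HIF1A-KD, against 16.7 ± 4.17 and 19.04 ± 3.59 RPKM in shCtrl. DLAT, the acetyltransferase, averaged 7.52 ± 0.622 RPKM in HIF1A-KD and 7.58 ± 1.45 RPKM in shCtrl. DLD, the dehydrogenase shared with other complexes, averaged 15.7 ± 4.39 RPKM in HIF1A-KD and 12.3 ± 2.76 RPKM in shCtrl (log2 change 0.34, SE 0.24, limma adjusted p = 0.848). The 7 tested genes of pyruvate entry had a median log2 change of 0.00 (0.06 over all genes). Estimates were below 0 for 3 and above 0 for 4, where 58.7% of all genes were above 0. Without shCtrl 2 all 7 were above 0, with a median of 0.10. Within libraries 3 and 4, 6 were above 0 (median 0.24), and within libraries 1 and 2, 3 were (median −0.03).

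**Figure D4:**
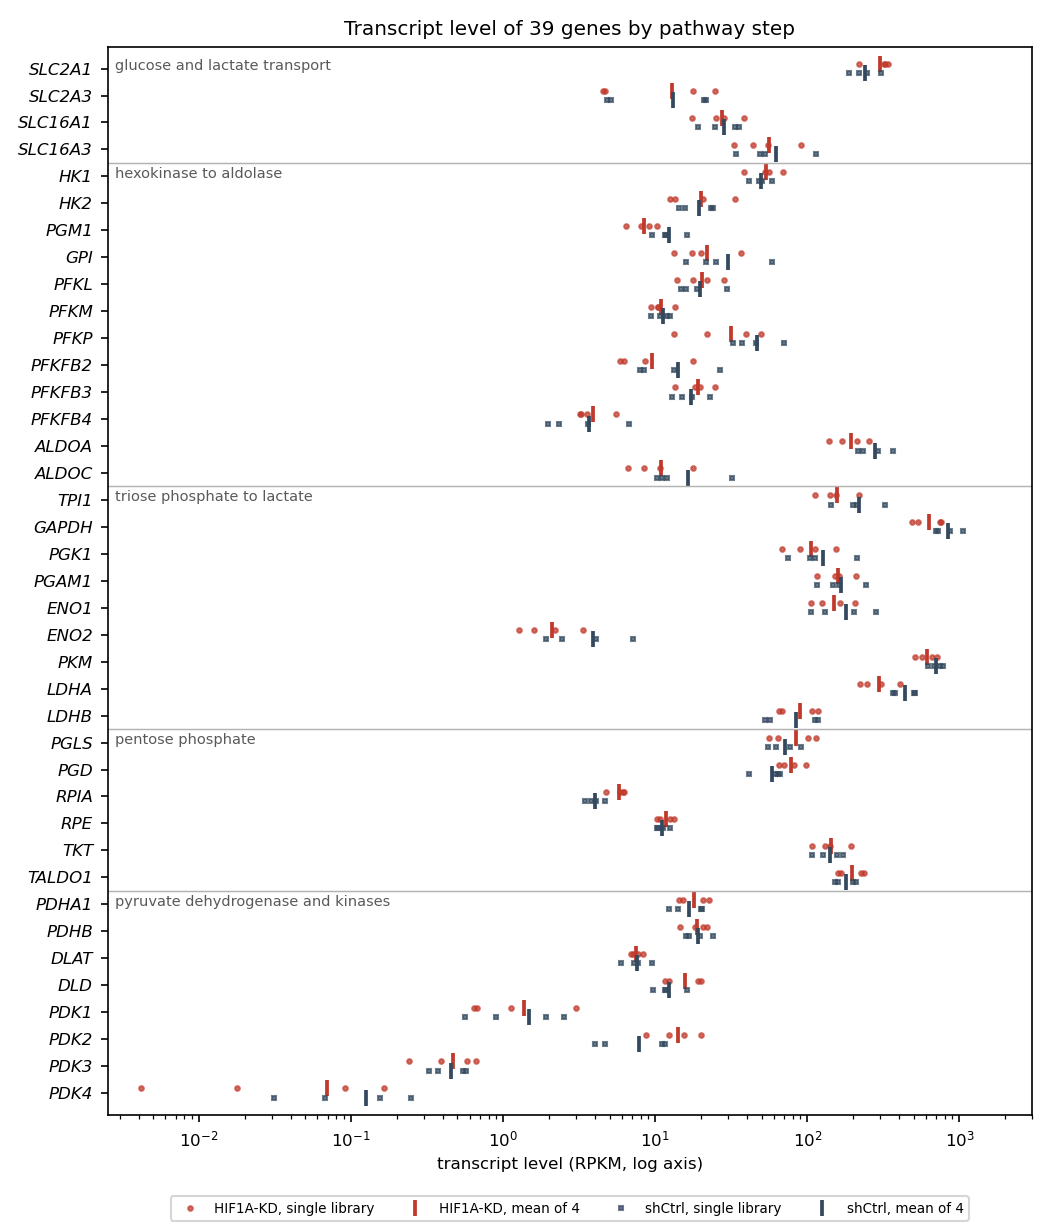
Level of each of the 39 members in RPKM on a log axis, by step, with 1 point per library and a tick at each group mean, HIF1A-KD above shCtrl. The levels span from GAPDH, at 487 to 1055 RPKM, to PDK4, under 0.25 RPKM in every library.

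Libraries of the same group differed widely. Taking for each gene its log2 distance from its own mean, the median over the members was −0.07, 0.16, −0.25 and 0.04 in HIF1A-KD 1 to 4 and −0.05, 0.34, −0.02 and −0.21 in shCtrl 1 to 4. The shCtrl 2 library held the highest value of 16 of the 39 members, and HIF1A-KD 3 held the lowest of 14. For the 9 genes from triose phosphate to lactate the median was −0.24, 0.35, −0.56 and −0.07 in HIF1A-KD 1 to 4 and 0.05, 0.62, 0.05 and −0.31 in shCtrl 1 to 4. The pentose phosphate genes had another order, with 0.36, 0.17, 0.01 and −0.01 in HIF1A-KD 1 to 4 and −0.21, 0.08, −0.12 and −0.17 in shCtrl 1 to 4.

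A recurring order was seen in 8 of the 38 tested members (SLC2A3, SLC16A1, SLC16A3, HK2, PFKP, GAPDH, PGK1 and PDK1), whose 4 highest values were in HIF1A-KD 2 and 4 and shCtrl 2 and 3, as for 3.23% of all genes tested. For 7 others (PFKL, PFKFB2, PGAM1, ENO1, LDHB, PGLS and PDHB) the 4 highest were libraries 1 and 2 of both groups, as for 14.6% of all genes. Both patterns were found by looking at these values and are given as descriptions.

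**Figure D5:**
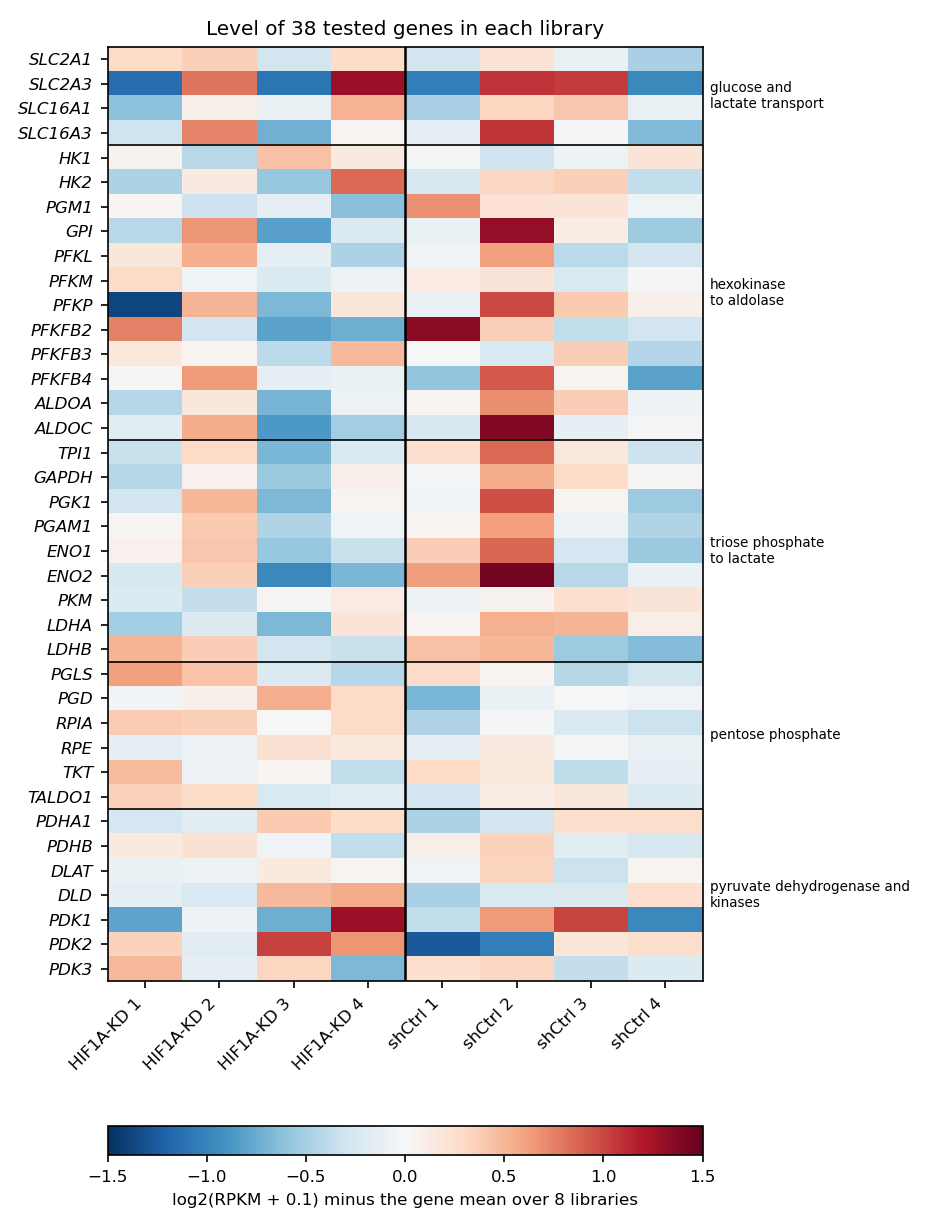
Each tested member's log2 distance from its own mean over the 8 libraries, rows ordered by step, HIF1A-KD 1 to 4 left of shCtrl 1 to 4. The shCtrl 2 column is high and the HIF1A-KD 3 column low for many glycolytic rows, while PDK2 is low in shCtrl 1 and 2 and high in HIF1A-KD 3 and 4.

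Of 60 other genes of the same pathways, listed with earlier results known, 33 were tested and 0 passed in either limma fit, where 0.042% of all genes passed unpaired and 1.83% paired. At an unadjusted p under 0.05 there were 5 (15.2%) unpaired, against 7.8% of all genes, and 9 (27.3%) paired, against 19.6%. Both the 5 and the 9 include RBKS, which passed the filter on low values through its HIF1A-KD libraries only. Estimates were below 0 for 17 (51.5%), against 41.3% of all genes, and above for 16. The smallest p was that of GPD1L, a glycerol 3-phosphate dehydrogenase-like gene, with 5.34, 6.93, 9.76 and 7.42 RPKM in HIF1A-KD 1 to 4 and 1.19, 2.15, 4.64 and 4.53 RPKM in shCtrl 1 to 4. Its groups did not overlap (log2 change 1.37, SE 0.42, limma adjusted p = 0.377). FBP1, the gluconeogenic phosphatase, held 8.62, 2.74, 1.37 and 0.717 RPKM in HIF1A-KD 1 to 4 and 0.529, 0.631, 0.128 and 0.606 RPKM in shCtrl 1 to 4. Every HIF1A-KD value was above every shCtrl value, but HIF1A-KD 1 carried most of the mean (log2 change 2.16, SE 0.71, limma adjusted p = 0.421).

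EMB, a chaperone of monocarboxylate carriers, was lower without overlap, at 9.78 ± 2.80 RPKM in HIF1A-KD and 15.2 ± 1.71 RPKM in shCtrl (log2 change −0.67, limma adjusted p = 0.438). PDP2, a phosphatase that reactivates pyruvate dehydrogenase, averaged 1.97 ± 0.4998 RPKM in HIF1A-KD and 3.02 ± 0.491 RPKM in shCtrl (log2 change −0.61). RBKS, a ribokinase, averaged 0.6004 ± 0.0870 RPKM in HIF1A-KD and 0.303 ± 0.0561 RPKM in shCtrl. The filter kept RBKS through its HIF1A-KD libraries only, so these means are given as a description. The genes PGK2, LDHAL6A, LDHAL6B, FBP2, SLC2A2, TKTL2 and PDHA2 were at 0 in every library.

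The authors' deposited table of the same comparison called more members than either fit. In the authors' deposited table all 39 members were listed and 6 of them (15.4%) had an adjusted p under 0.05, against 9.02% of its 13627 genes (3.94% higher and 5.08% lower). In the authors' deposited table, lower calls were PFKFB2 (adjusted p = 9.4e-06, moderated log2 ratio −0.59), PGM1 (0.000174, −0.57), ENO2 (0.00149, −0.78) and LDHA (0.0456, −0.58). Higher calls in the authors' deposited table were PDK2 (0.00134, 0.76) and PGD (0.0248, 0.35). ALDOA and ALDOC each had an adjusted p of 0.0505 in the authors' deposited table. The sources used here name neither its tool nor its design.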

How the data were processed

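RNA was sequenced from 4 HIF1A-KD and 4 shCtrl libraries. Library number was taken from the titles. Tools named per the submitters' processing notes were HTSeq 0.6.1, Picard 1.129, TopHat2 2.0.13, SAMtools 1.3.1, FastQC 0.11.5, Bowtie2 2.2.3.0 and bcl2fastq. Whether strand was used in counting was not stated there. The expression table, deposited under a name for counts, holds RPKM by the authors for 25369 genes. Its contig names are those of hg19. RPKM times the listed length and a library total, itself estimated from the same values, gave whole reads within 0.01 read. This held for 100% of values of the 24772 genes with a readable length, and 597 genes had an unreadable length. The authors' deposited comparison table gives a mean signal per group, a moderated fold ratio with its log2, and p-values, by an unnamed tool.

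The 11899 genes that reached 0.5 RPKM in 4 or more libraries were tested with limma 3.58.1 (R 4.3.3; trend and robust) on log2(RPKM + 0.1), two-sided and unpaired, adjusted by Benjamini-Hochberg over all of them. Changes on this scale are understated for low genes. The exact test used scipy 1.17.1. Members, lists and tests were chosen with earlier results of these data known. Same-numbered libraries deviated together across genes (correlations 0.754, 0.730, 0.252 and 0.257), so the number was taken as pairing them, from the data and not the labels. Numbers 3 and 4 are in doubt: the correlation of shCtrl 3 was higher with HIF1A-KD 4 (0.463), and that of shCtrl 4 with HIF1A-KD 3 (0.613). Values in every library are given for members called, members without overlap, the 8 smallest unpaired p and the 6 highest means, as a rule. SLC2A3, PFKFB2, PDK1, PDK4 and the isoform shares were added to these after their values were seen. For other pathway genes the 5 smallest p were named. Protein sequences were not used here.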

Additional observations from a re-analysis of the deposited data

Results flagged for a closer look

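In 78 groups of 4 libraries (39 members in each of 2 groups), 3 values stood far from the other 3 libraries of their group by Dixon's test, and chance gives about 1 in 20 groups. SLC2A1 was low in HIF1A-KD 3, at 218 RPKM against 319 to 338 RPKM in the other HIF1A-KD libraries. PFKFB4 was high in HIF1A-KD 2, at 5.49 RPKM against 3.19 to 3.55 RPKM in the other HIF1A-KD libraries. ALDOC was high in shCtrl 2, at 31.9 RPKM against 10.2 to 11.96 RPKM in the other shCtrl libraries.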

How the results depend on the processing

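No member was called under any alternative except an exchange of library numbers given below. Of the 38 members tested, 17 kept their sign in every fit, 20 lost it when 1 library was left out and 14 under another setting. The number of all genes called, 5 in the unpaired fit, was 3 with a pseudocount of 1 or 0.01 RPKM or with limma-voom on recovered reads, 1 without the filter, 8 with median-of-ratios scaling, 102 with the split of libraries 1 and 2 from 3 and 4 as a term, 0 in libraries 1 and 2, and 0 to 195 when 1 library was left out of the unpaired or paired fit (33, 1, 195 and 182 paired, by number 1 to 4). With the replicate block it was 218, HIF1A (−1.34) passed, and no member's call changed. Exchanging HIF1A-KD 3 and 4 in the block was chosen after the correlations were seen and so is no independent support. It called 1327 of 11899 genes (751 higher, 576 lower) and 11 of 38 members (4 higher, 7 lower), with HIF1A still at −1.34. When 1 library was left out, HIF1A ran from −1.59 to −1.07. The members' median log2 change, −0.03, was 0.030 in libraries 3 and 4 and ran from −0.15 to 0.083 over the leave-outs. It was 0.083 without shCtrl 2 and 0.013 without HIF1A-KD 3.

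Single members reversed in sign as follows. PDK3 was 0.0093 with a pseudocount of 1 RPKM and 0.0089 with limma-voom. Median-of-ratios scaling gave PFKL −0.015, TKT −0.044 and DLAT −0.062. In libraries 1 and 2, HK1 was −0.021, LDHB −0.029, RPE −0.11, TKT −0.037 and DLAT −0.23. In libraries 3 and 4, SLC2A3 was 0.062, SLC16A1 0.069, SLC16A3 0.0076, HK2 0.15, PGAM1 0.011, TALDO1 −0.18, PDK1 0.25 and PDK3 0.10. Over the leave-outs the reversed members ran from −0.16 to 0.14 (DLAT), −0.43 to 0.045 (ENO1), −0.034 to 0.26 (HK1), −0.45 to 0.27 (HK2), −0.068 to 0.32 (LDHB), −0.011 to 0.23 (PDHA1), −0.10 to 0.10 (PDHB), −0.96 to 0.37 (PDK1), −0.23 to 0.22 (PDK3), −0.11 to 0.46 (PFKFB3), −0.018 to 0.55 (PFKFB4), −0.12 to 0.27 (PFKL), −0.14 to 0.036 (PFKM), −0.21 to 0.14 (PGAM1), −0.47 to 0.085 (PGK1), −0.29 to 0.14 (SLC16A1), −0.39 to 0.22 (SLC16A3), −0.84 to 0.63 (SLC2A3), −0.064 to 0.28 (TALDO1) and −0.13 to 0.15 (TKT). The cause was not tested. With 3 libraries left in a group, the paired fits dropped the partner as well. PDK4 had 1 to 44 reads a library. Counting error was not set against the spread between libraries.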
